A study of Rattus norvegicus with 12 samples.

Results

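Chondroitin sulfate proteoglycans and small leucine-rich proteoglycans are the core proteins that carry much of the sulfated sugar of the extracellular matrix of nerve tissue. The 9 genes described here are Vcan, Ncan and Bcan, Cspg4 and Ptprz1, and Dcn, Bgn, Lum and Fmod. They were taken by gene symbol from the array's annotation, and they are 9 of the 14217 genes that the array names. They are read by 15 probe sets, which are groups of short oligonucleotides against 1 transcript. Where a gene has several, the one that was brightest on average over the 12 arrays leads.

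Rat optic nerve head astrocytes in primary culture were treated with epidermal growth factor (EGF) or left as controls, and total RNA was hybridised to 1 array per sample. The samples fall into EGF for 4 h and its controls, and EGF for 12 h and its controls, with 3 arrays in each of the 4 groups. The study text describes each time as an experiment of its own, with control and EGF cultures as sisters, so time and experiment cannot be told apart. The EGF dose, and the strain, age and sex of the rats, are not given in the sources used here, and nothing states that replicates came from separate cultures or animals, so p-values measure the spread between these samples, which may be technical.

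As background, versican (Vcan), neurocan (Ncan) and brevican (Bcan) are lecticans, which bind hyaluronan at their amino-terminal end and tenascins at their carboxy-terminal end. Their chondroitin sulfate chains are known to slow growing axons, and reactive astrocytes lay several of them down around injuries of the brain, spinal cord and optic nerve. NG2 (Cspg4) is a membrane-spanning proteoglycan known from oligodendrocyte precursors and pericytes, and Ptprz1 encodes a receptor phosphatase whose shed outer part is called phosphacan. Decorin (Dcn), biglycan (Bgn), lumican (Lum) and fibromodulin (Fmod) have short cores of leucine-rich repeats that bind collagen fibrils and, for several of them, transforming growth factor beta. Decorin and biglycan carry chondroitin or dermatan sulfate, whereas lumican and fibromodulin carry keratan sulfate.

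The promoter windows of 3 genes are shown because they stand for the different directions described below: Vcan and Cspg4, which were higher after EGF, and Fmod, which was lower. Each window is RefSeq sequence of build GRCr8, runs 250 bases before to 50 bases after the annotated start and reads 5′ to 3′ along the gene. Capitals mark the GC box, searched as GGGCGG on both strands, so that it can also read CCGCCC.
Vcan, chr2:22595906-22596205, minus strand: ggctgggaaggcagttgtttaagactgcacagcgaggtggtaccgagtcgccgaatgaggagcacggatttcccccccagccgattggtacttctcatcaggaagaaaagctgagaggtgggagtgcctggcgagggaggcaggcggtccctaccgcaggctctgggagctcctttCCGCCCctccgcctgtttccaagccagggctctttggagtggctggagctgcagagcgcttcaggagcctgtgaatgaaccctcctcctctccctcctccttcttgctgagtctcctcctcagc
Cspg4, chr8:66160692-66160991, plus strand: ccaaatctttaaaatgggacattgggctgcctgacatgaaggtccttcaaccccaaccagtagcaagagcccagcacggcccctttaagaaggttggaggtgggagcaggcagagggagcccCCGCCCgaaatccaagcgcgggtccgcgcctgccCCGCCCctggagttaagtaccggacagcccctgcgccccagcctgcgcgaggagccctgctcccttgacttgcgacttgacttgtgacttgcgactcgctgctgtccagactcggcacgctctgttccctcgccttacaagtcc
Fmod, chr13:48045317-48045616, plus strand: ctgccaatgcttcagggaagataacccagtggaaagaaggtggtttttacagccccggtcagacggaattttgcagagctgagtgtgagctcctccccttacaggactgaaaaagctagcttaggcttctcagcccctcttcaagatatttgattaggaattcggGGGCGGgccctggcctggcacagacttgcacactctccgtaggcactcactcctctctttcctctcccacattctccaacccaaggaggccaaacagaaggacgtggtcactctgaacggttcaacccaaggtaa
The match lies at positions -74 to -69 from the start in the Vcan window, which is 1 of 2 that the table holds for overlapping starts of this gene (the same box lies at -172 to -167 in the other), and at -85 to -80 in that of Fmod. The Cspg4 window has matches at -128 to -123 and at -94 to -89. A GC box was found in 33.1% of the 33469 rat windows of this length. The AP-1 letters TGANTCA, in 7.33% of all windows, were in none of the windows of the 6 members that the table holds, which says only that these letters are not in those stretches. Dcn, Bgn and Ptprz1 are named here without a window.

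Array signals are the authors' MAS5 intensities, scaled so that every array has the same trimmed mean. Levels below are signals on that linear scale, which cannot be compared between probe sets. Changes are differences of log2(signal + 24.4), EGF minus control, from 1 limma fit over the 18625 probe sets that passed a filter on low mean signal, and a gene passed the test at a Benjamini-Hochberg adjusted p under 0.05. The labels call the cells astrocytes, but Gfap (36.2 to 347 over all arrays), Aqp4 (14.9 to 108), Slc1a2 (4.9 to 331) and Aldh1l1 (13.8 to 210) all had mean signals under the filter, whereas Gja1 (51744 to 85280) and Vim (60217 to 116059) were bright. The astrocyte markers S100b (150 to 490.5) and Slc1a3 (30.2 to 964) were dimmer than Gja1 and Vim but passed the filter. All 8 fibroblast and meningeal markers were above the filter. The array sets differ: at 4 h, hybridisation controls averaged 21217 on EGF replicate 3 and 23645 on control replicate 3, against 49.6 to 111 on every other array. At 12 h, the ratio of 3′ to 5′ actin signal was 18.1 and 20.5 on EGF replicates 1 and 2 and 1.24 on EGF replicate 3, against 11.1 to 21.7 on the 3 controls.

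Of the 9 genes, 6 passed the filter and were tested, namely Vcan, Cspg4, Dcn, Bgn, Lum and Fmod. Ncan, Bcan and Ptprz1 stayed under it. At 4 h, Vcan rose and Dcn and Fmod fell. Over all genes tested by their leading probe sets, 32.4% passed, 12.8% as higher and 19.6% as lower. Over all tested probe sets 27.8% passed, 11.4% as higher and 16.5% as lower. At 12 h, Vcan and Cspg4 rose and Dcn, Lum and Fmod fell. Of all genes 40.8% passed at that time, 16.5% as higher and 24.2% as lower, and of all tested probe sets 36.1%, 15.3% as higher and 20.8% as lower. The 12 h effect differed from the 4 h effect for Vcan in the higher direction and for Dcn and Fmod in the lower one. That test was passed by 14% of all genes, 6.55% as higher and 7.45% as lower, and by 11.6% of all tested probe sets, 5.45% as higher and 6.11% as lower. The filter lay at a mean signal of 215.4. The tested members nearest to it were Lum with a mean of 368 and Cspg4 with 478, and the Bcan probe sets, with 145 and 125, were the nearest of those left out. In RNA from whole cultures, fewer cells of a type and less RNA per cell cannot be told apart.

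**Figure D1:**
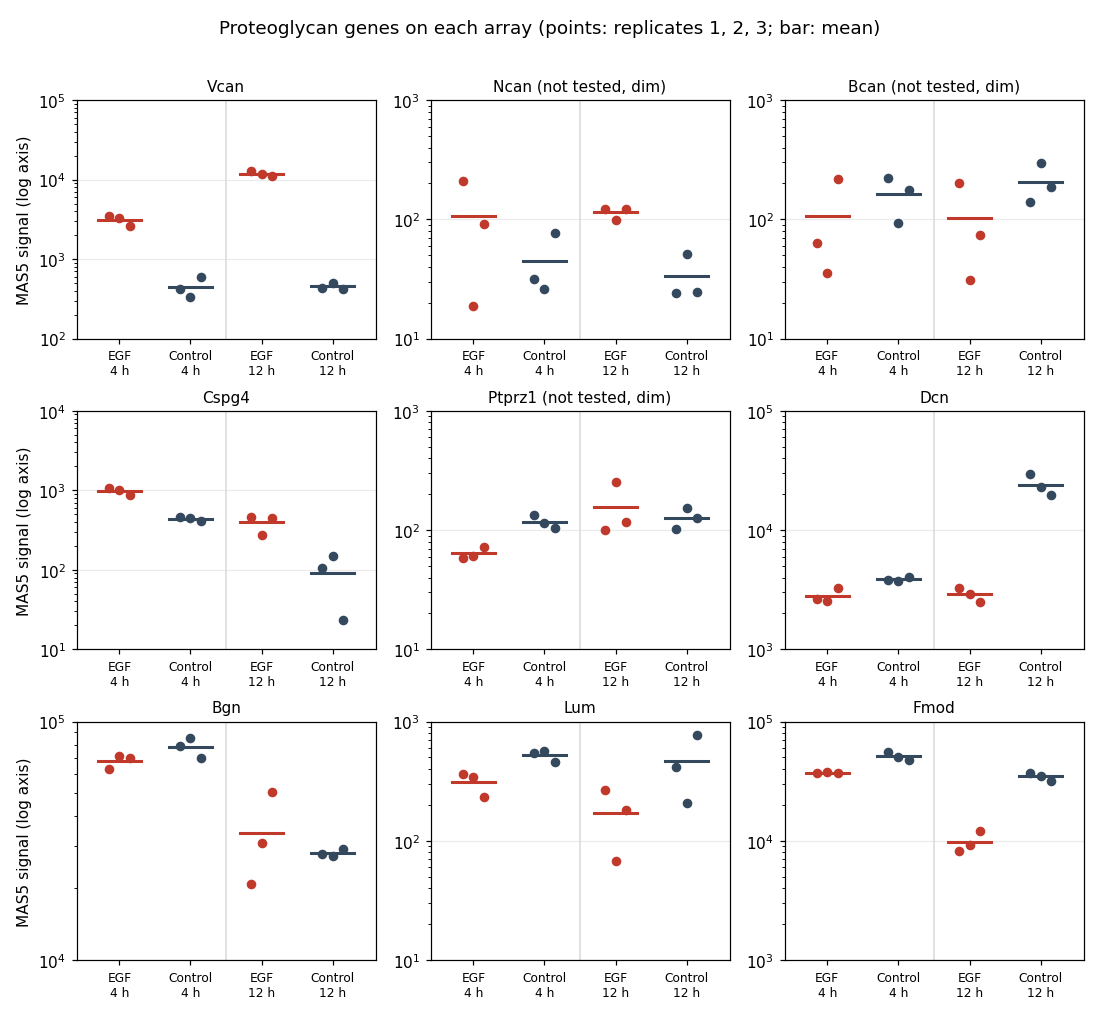
Signal of the leading probe set of each of the 9 proteoglycan genes on every array (log axis), with EGF left of its control at 4 h and at 12 h; points are arrays and bars are group means. Vcan reads 2598 to 3464 with EGF at 4 h and 11234 to 12946 with EGF at 12 h, against 333 to 598 and 425 to 505 in the controls, and Dcn stands apart only in the 12 h controls.

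Versican showed the largest rise among the 9 genes at both times. Its leading probe set read 3464, 3312.5 and 2598 in EGF cultures at 4 h, against 415, 333 and 598 in their controls. At 12 h it read 12946, 11634.5 and 11234 in EGF cultures, against 437, 505 and 425 in controls. Every EGF array lay above every control array at its time. The 12 h controls lay within the range of the 4 h controls, which was the wider. The log2 change was 2.76 ± 0.20 (SE, limma, adjusted p = 3.93e-07), or 6.78-fold, at 4 h. At 12 h it was 4.64 ± 0.20 (limma, adjusted p = 2.70e-09), or 24.9-fold. The 12 h effect exceeded the 4 h effect by 1.88 ± 0.28 (limma, adjusted p = 8.76e-04).

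The other versican probe sets give a view of the same gene that the leading probe set does not. Probe sets 1388054_a_at, 1371232_a_at and 1388265_x_at passed the filter, and each was higher with EGF on every array at both times. The controls of 1388265_x_at averaged 214 at 4 h and 169.5 at 12 h, under the filter, so it was tested only through its EGF arrays and its values are a description. At 4 h their log2 changes were 2.37 ± 0.30, 1.71 ± 0.28 and 1.68 ± 0.32, and at 12 h they were 4.39 ± 0.30, 4.33 ± 0.28 and 3.84 ± 0.32. These are smaller than the leading value at 4 h and close to it at 12 h except for 1388265_x_at. The suffixes a and x mark probe sets that the manufacturer's design shares between transcripts of 1 gene or with other sequences, and what each reads of the versican splice forms is not annotated in the sources used here.

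Replicate 3 at 4 h differed from the other pairs in how the versican probe sets ranked. Probe set 1388054_a_at read 1291, 1278 and 2579.5 in EGF cultures at 4 h, against 278, 191 and 475 in controls. Replicate 3 was thus the brightest of both groups there, whereas on the leading probe set it was the dimmest EGF array and the brightest control. On the leading probe set the log2 ratio was 3.11 over replicates 1 and 2 and 2.07 in replicate 3, and on 1388054_a_at it was 2.36 and 2.38. This pair is the one with the bright hybridisation controls, whose part in the difference was not tested. The versican probe set 1371233_at read only 17.7 to 112 in EGF cultures and 20.7 to 37.9 in controls at 4 h, and 84.9 to 207 in EGF cultures and 13.1 to 84.5 in controls at 12 h, and was left out of the test as dim.

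**Figure D2:**
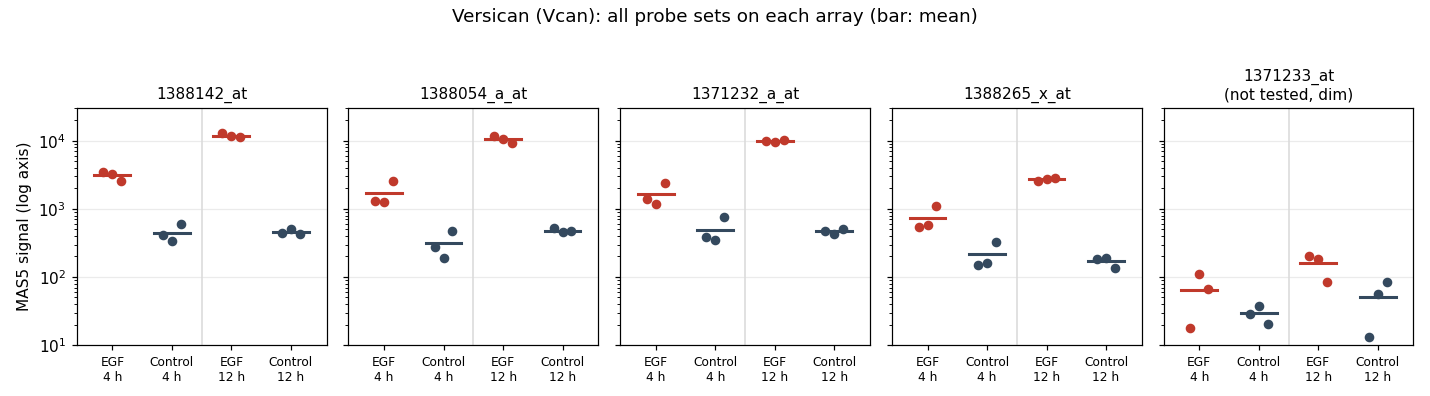
Signal of the 5 versican probe sets on every array (log axis), with EGF left of its control at 4 h and at 12 h; points are arrays. In 4 of the 5 probe sets every EGF array lies above every control array at both times, and in the dim 1371233_at the groups overlap at 4 h.

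Neurocan and brevican, the lecticans of brain tissue, were at the low end of the scale in all groups. Ncan read 210, 18.9 and 91.6 in EGF cultures at 4 h, against 31.8, 26.1 and 76.6 in controls. At 12 h Ncan read 123, 98.9 and 121 in EGF cultures, against 24.2, 51.4 and 24.7 in controls, so the groups did not overlap at this time. The 25th percentile of all signals on these arrays was 96.8, and in a fit without the filter the 12 h log2 change of Ncan was 1.29 ± 0.56 (limma, adjusted p = 0.127), which did not pass. The leading Bcan probe set read 31.0 to 201 in EGF cultures at 12 h, against 139 to 295 in controls, and overlapped at 4 h too. Its second probe set read 150 to 190 in EGF cultures at 12 h, against 42.7 to 192 in controls. The fit without the filter gave log2 changes at 12 h of -1.05 ± 0.62 for the first (limma, adjusted p = 0.277) and 0.54 ± 0.64 for the second (limma, adjusted p = 0.642), so that the 2 probe sets of Bcan pointed in opposite directions and neither passed.

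NG2, the membrane-spanning proteoglycan, was higher with EGF at 12 h. Cspg4 read 459, 277 and 452 in EGF cultures at 12 h, against 105, 148 and 23.5 in controls. At 4 h it read 1055, 1018 and 884 in EGF cultures, against 459, 447 and 414 in controls. The groups did not overlap at either time, and both groups were lower at 12 h than at 4 h. The 12 h controls averaged 92.1, under the 25th percentile of all signals, so the size of the 12 h change rests on a level near the background. The log2 change was 2.01 ± 0.40 at 12 h (limma, adjusted p = 0.00152) and 1.12 ± 0.40 at 4 h (limma, adjusted p = 0.0521, 95% interval 0.26 to 1.98), which missed the threshold. At 12 h it passed in every alternative in which it was tested, and was 1.42 with an offset of 4 times 24.4, 2.41 with an offset of 1 and 1.46 without control replicate 3 (limma, adjusted p = 0.00243). It passed at 4 h in 9 of 23 alternatives, with adjusted p = 0.00119 in a fit of the 4 h arrays alone, and its adjusted p ran up to 0.161. Leaving out any of 4 arrays of the 12 h experiment, control replicate 2 (0.0351) or 3 (0.007) or EGF replicate 2 (0.0497) or 3 (0.0384), brought the 4 h adjusted p under the threshold. The 12 h effect did not differ from the 4 h effect beyond error (0.89 ± 0.57, limma, adjusted p = 0.345).

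Markers of the cells that NG2 is known from were read beside it. The summed signal of 6 oligodendrocyte-lineage markers on the array was 2520 to 3255 in EGF cultures and 5654 to 5762 in controls at 4 h, and 2672 to 2722 in EGF cultures and 5876 to 6560 in controls at 12 h. Of these, Pdgfra and Mbp were tested and fell at both times, and they made up most of the sums (means of 3092 and 2296 in the 4 h controls). Sox10, Olig1, Olig2 and Mog stayed under the filter. At 4 h, Sox10 averaged 74.0 with EGF and 59.0 in controls, Olig1 113 and 46.5, and Olig2 80.2 and 34.3, whereas Mog averaged 139 and 188. At 12 h, Sox10 averaged 27.7 with EGF and 27.6 in controls, Olig1 116 and 65.6, Olig2 47.1 and 66.7, and Mog 99.2 and 109.5. The summed signal of 6 pericyte and smooth-muscle markers was 10688 to 14785 in EGF cultures and 13366 to 22035 in controls at 4 h, and 1972 to 3284 in EGF cultures and 2082 to 2702 in controls at 12 h, with Rgs5 dim (22.4 to 152). Of these 6, 3 were tested and 0 passed at either time, where 32.4% of all genes passed at 4 h and 40.8% at 12 h. Most of the sum at 4 h was Acta2 (means of 11580 with EGF and 17326 in controls). The part of such cells in the Cspg4 values was not tested.

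Ptprz1, the receptor phosphatase that gives rise to phosphacan, had 2 dim probe sets, neither of which passed in a fit without the filter. The leading one read 58.0, 60.9 and 72.5 in EGF cultures at 4 h, against 134, 114 and 105 in controls. At 12 h it read 101, 252.5 and 117 in EGF cultures, against 102, 152 and 125 in controls. The groups thus did not overlap at 4 h and overlapped at 12 h. The second probe set read 29.2 to 70.1 in EGF cultures at 4 h and 9.8 to 39.6 in controls, and 49.4 to 57.8 in EGF cultures at 12 h and 12.5 to 22.3 in controls. In that fit the log2 changes of the leading probe set were -0.69 ± 0.42 at 4 h and 0.19 ± 0.42 at 12 h (limma, adjusted p = 0.348 and 0.828). Those of the second were 0.68 ± 0.40 at 4 h and 0.91 ± 0.40 at 12 h (limma, adjusted p = 0.312 and 0.129).

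Decorin had the largest fall among the 9 genes, and its contrast at 12 h lay between a bright control group and an EGF group at about the 4 h level. Dcn read 3271, 2931 and 2488 in EGF cultures at 12 h, against 29639, 22926 and 19745 in controls. At 4 h it read 2641, 2552 and 3264 in EGF cultures, against 3846, 3768 and 4079 in controls. Group means were 2819 ± 388 with EGF and 3898 ± 162 in controls at 4 h, and 2897 ± 393 with EGF and 24104 ± 5051 in controls at 12 h (SD, n = 3 each). The log2 change was -3.03 ± 0.16 at 12 h (limma, adjusted p = 1.90e-08), which is 8.19-fold lower, and -0.47 ± 0.16 at 4 h (limma, adjusted p = 0.0455). The 12 h effect minus the 4 h effect was -2.56 ± 0.23 (limma, adjusted p = 2.28e-05).

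The 2 decorin effects differ in how firmly they held. At 12 h the log2 change lay between -3.20 and -2.88 in all 24 alternatives, and EGF replicate 3, whose actin ratio matched the 4 h arrays, gave -3.24 alone against -2.93 for the other arrays of its time. At 4 h the call was lost in 12 of 24 alternatives. The median over all tested probe sets was -0.15 at 4 h and -0.06 at 12 h, and centring each array on its median made these 0.045 and 0.010. With that centring the 4 h change of Dcn was -0.28 ± 0.17 (limma, adjusted p = 0.292). Leaving out EGF replicate 1 or 2 or any 1 of the 3 controls at 4 h, or EGF replicate 2 or control replicate 2 at 12 h, also ended the 4 h call, with adjusted p between 0.0556 and 0.154.

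Fibromodulin, a keratan sulfate proteoglycan that binds collagen fibrils, fell at both times. Fmod read 8150.5, 9179 and 11986 in EGF cultures at 12 h, against 37031, 35188 and 31662 in controls. At 4 h it read 37185, 37507 and 37163 in EGF cultures, against 55746, 50801 and 47990.4 in controls. The groups did not overlap at either time, and the 12 h fall was the larger. The log2 change was -0.46 ± 0.14 at 4 h (limma, adjusted p = 0.0241) and -1.84 ± 0.14 at 12 h (limma, adjusted p = 3.89e-07), which is 3.58-fold lower, and the difference between them was -1.38 ± 0.20 (limma, adjusted p = 6.96e-04).

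As for Dcn, the 12 h change of Fmod passed in all 24 alternatives (-2.13 to -1.72), and the 4 h change was lost in 10 of 24. Centring on the median made the 4 h change -0.27 ± 0.15 (limma, adjusted p = 0.246), and leaving out EGF replicate 1, 2 or 3 or control replicate 1 or 2 at 4 h gave adjusted p between 0.0538 and 0.0934. At 12 h the log2 ratio was -1.53 with EGF replicate 3 as the only EGF array and -1.995 without it.

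Lumican, the neighbour of Dcn, was dim and passed the test only at 12 h, where its groups overlapped. Lum read 266, 67.6 and 181.5 in EGF cultures at 12 h, against 416, 209 and 768 in controls. At 4 h it read 363, 345 and 231 in EGF cultures, against 550, 568 and 454 in controls, without overlap. The log2 change was -1.30 ± 0.47 at 12 h (limma, adjusted p = 0.0439) and -0.72 ± 0.47 at 4 h (limma, adjusted p = 0.285, 95% interval -1.72 to 0.29). The 12 h call was lost in 13 of 23 alternatives. It was -0.86 without control replicate 3 (limma, adjusted p = 0.198) and -0.83 without EGF replicate 2 (limma, adjusted p = 0.168). Leaving out control replicate 1 of the 12 h experiment, or EGF replicate 1 or 2 or any 1 of the 3 controls of the 4 h experiment, gave adjusted p between 0.0544 and 0.101.

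Biglycan, the closest relative of decorin among these genes, did not pass at either time. Bgn read 63439, 72012 and 70089.5 in EGF cultures at 4 h, against 79045, 85626 and 70665 in controls. At 12 h it read 20742, 31026 and 50872 in EGF cultures, against 27873, 27203.5 and 29135.5 in controls. The EGF arrays at 12 h spanned a wider range than all the controls at that time, and replicate 3, the array with the low actin ratio, was the brightest. The log2 change was -0.19 ± 0.23 at 4 h (limma, adjusted p = 0.588, 95% interval -0.70 to 0.31) and 0.19 ± 0.23 at 12 h (limma, adjusted p = 0.56, 95% interval -0.31 to 0.69). Without EGF replicate 3 the 12 h change was -0.15, and without EGF replicate 1 it was 0.50 (limma, adjusted p = 0.0418), so its sign and its call turned on single arrays. With median centring the 4 h change was 0.003.

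**Figure D3:**
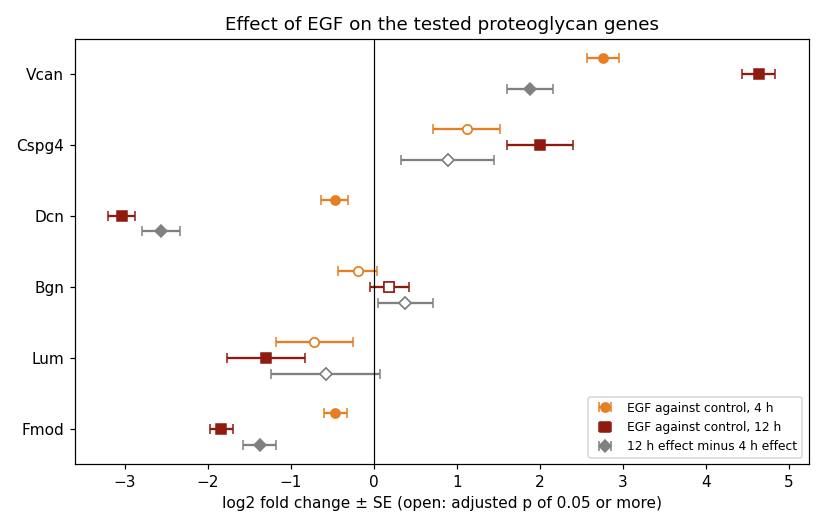
Log2 change (EGF minus control) with its SE from limma for the 6 tested genes at 4 h and 12 h, and the 12 h effect minus the 4 h effect; open symbols did not pass an adjusted p of 0.05. Vcan lies at 2.76 and 4.64, Dcn at -0.47 and -3.03 and Fmod at -0.46 and -1.84, and Bgn lies near 0 at both times.

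The controls themselves differed between the experiments. Between the controls, 12 h minus 4 h, 45.4% of all tested probe sets passed, 23.8% as higher and 21.7% as lower. Of the 6 tested members, Dcn was higher in the 12 h controls (2.60 ± 0.16, limma, adjusted p = 2.99e-07), and Cspg4 (-2.18 ± 0.40, adjusted p = 9.05e-04), Bgn (-1.48 ± 0.23, adjusted p = 3.53e-04) and Fmod (-0.57 ± 0.14, adjusted p = 0.00509) were lower there. Vcan differed by 0.06 ± 0.20 (adjusted p = 0.837) and Lum by -0.33 ± 0.47 (adjusted p = 0.584). With the 4 array sets as a block, Dcn kept its call (2.15, adjusted p = 5.92e-05), and Cspg4 (-1.75, adjusted p = 0.146), Bgn (-0.42, adjusted p = 0.303) and Fmod (-0.05, adjusted p = 0.889) lost theirs. The array sets lie within the times, so that fit cannot decide whether the controls differ. It reads the 12 h controls at the level of EGF replicate 3 of that experiment. It reads the 4 h controls at the level of the replicate 3 pair. Another choice of levels would give other values, so the kept and lost calls do not test the difference.

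The genes whose pattern over the 12 arrays was most like that of Vcan were Enpp1 (Pearson r = 0.992), Ankh (0.990) and Itga6 (0.988), with r taken on log2 signals. Ankh averaged 7843 ± 701 with EGF and 881 ± 103 in controls at 4 h, and 29601 ± 4554 with EGF and 1412 ± 195 in controls at 12 h. The genes most like Dcn were Gzf1 (0.986), Dab2 (0.983) and Smoc2 (0.980). Smoc2 averaged 342 ± 17.4 with EGF and 343 ± 66.4 in controls at 4 h, and 263 ± 25.1 with EGF and 3435 ± 158 in controls at 12 h (SD, n = 3 each). Like Dcn, Smoc2 stood apart in the 12 h controls. The 12 arrays fall into 4 groups and share their experiments and scaling, so these values describe likeness only.

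Among the other small leucine-rich proteins, the gene list nearest to Dcn and Fmod by family, 5 of 7 tested genes fell with EGF at 12 h. The list has 12 genes, of which 9 were on the array, and 0 of the 7 rose, with a median log2 change of -1.64. Over all genes tested by their leading probe sets, 40.8% passed at 12 h, 16.5% as higher and 24.2% as lower. Ecm2 fell by 3.46 on the log2 scale (SE 0.23, limma, adjusted p = 1.13e-07), and averaged 309 ± 103 with EGF and 3607 ± 767 in controls at 12 h. Omd, osteomodulin, averaged 344 ± 91.4 with EGF and 3393 ± 881 in controls, a change of -3.21 ± 0.24 (limma, adjusted p = 3.93e-07). Ogn, which encodes osteoglycin or mimecan, averaged 9336 ± 281 with EGF and 37464 ± 5033 in controls, a change of -1.99 ± 0.14 (limma, adjusted p = 1.74e-07). Prelp averaged 673 ± 252 with EGF and 2074 ± 275 in controls, a change of -1.64 ± 0.22 (limma, adjusted p = 6.34e-05). Podn was the other gene that fell (-1.13 ± 0.20, limma, adjusted p = 7.01e-04), and Aspn (-0.53 ± 0.50) and Tsku (0.04 ± 0.31) did not pass.

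At 4 h, 2 of these 7 leucine-rich genes fell and 0 rose, with a median of -0.50, and 32.4% of all genes passed, 12.8% as higher and 19.6% as lower. They were Omd (-0.90 ± 0.24, limma, adjusted p = 0.0139) and Ogn (-0.51 ± 0.14, limma, adjusted p = 0.0145). The 12 h effect was lower than the 4 h effect for 4 of the 7, Ecm2, Ogn, Omd and Prelp, while 14% of all genes passed that test, 6.55% as higher and 7.45% as lower. The count of 5 at 12 h was the same in all 24 alternatives, and that at 4 h ran from 0 to 3, with 0 under median centring. In the gene order of GRCr8, Dcn, Lum, Kera and Epyc follow each other on chromosome 7, Optc, Prelp and Fmod do so on chromosome 13, and Ogn, Omd, Aspn and Ecm2 lie together on chromosome 17, with 1 ribosomal protein pseudogene listed between Aspn and Ecm2. Within the group on chromosome 17, Aspn was the gene that did not pass at 12 h, with 278 ± 74.1 with EGF and 488 ± 389 in controls.

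Fibroblast and meningeal cells are known sources of small leucine-rich proteoglycans, and the summed signal of the 8 markers fixed for them was 245470 to 262107 with EGF and 272432 to 304836 in controls at 4 h, and 132759 to 205243 with EGF and 206967 to 233436 in controls at 12 h. These sums are mostly the 3 collagens Col1a1, Col1a2 and Col3a1. At 4 h, 1 of the 8 markers rose and 0 fell, where 32.4% of all genes passed, and at 12 h 1 rose and 3 fell, where 40.8% did. Twist1 was the marker that rose at both times (1.31 ± 0.16 and 0.63 ± 0.16, limma, adjusted p = 5.25e-05 and 0.00841). The 3 that fell at 12 h were Pdgfrb (-1.11 ± 0.30), Col1a2 (-0.70 ± 0.15) and Col3a1 (-0.47 ± 0.17, limma, adjusted p = 0.0113, 0.002 and 0.0421). All 8 were tested, and the lowest signal of any of them on any array was 306 (Fbln1). The part of such cells in the falls of Dcn, Fmod and the other leucine-rich genes was not tested.

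Markers of other cell types also changed at 12 h, where 40.8% of all genes passed, 16.5% as higher and 24.2% as lower. At 4 h 32.4% of all genes passed. Both tested Schwann cell markers fell, Pmp22 by 0.495 and Prx by 0.74 on the log2 scale (limma, adjusted p = 0.00942 and 0.00663), and neither passed at 4 h. Ngfr, the other marker of that list on the array, stayed under the filter and lay the other way. It averaged 267 with EGF and 42.7 in controls at 12 h, and 138 with EGF and 15.1 in controls at 4 h. The endothelial receptor gene Tek, the 1 tested of its list, fell at both times, with -1.18 ± 0.19 at 12 h (limma, adjusted p = 0.00149 at 4 h and 2.90e-04 at 12 h). Of 3 tested microglia and macrophage markers, Aif1 and Csf1r did not pass at either time. Cd68 averaged 924 ± 114 with EGF and 62.1 ± 62.5 in controls at 12 h, and 72.4 with EGF and 47.2 in controls at 4 h. It was tested only through its EGF arrays at 12 h, so its values are a description. The part of such cells in the proteoglycan values was not tested.

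Among other chondroitin sulfate proteoglycans, 8 of 10 listed genes were on the array, and 3 of these were bright enough to test. Over all genes, 32.4% passed at 4 h and 40.8% at 12 h. Esm1, which encodes endocan, a secreted dermatan sulfate proteoglycan, averaged 33643 ± 1147 with EGF and 8874 ± 1084 in controls at 4 h, and 32159 ± 6760 with EGF and 1455 ± 508 in controls at 12 h. Its log2 change was 1.93 ± 0.21 at 4 h (limma, adjusted p = 1.59e-05) and 4.48 ± 0.21 at 12 h (limma, adjusted p = 4.80e-09). The EGF level was thus similar at both times and the control level was lower at 12 h. Srgn, serglycin, fell at 12 h (-1.23 ± 0.13, adjusted p = 8.65e-06), as did Spock3, a testican (-1.79 ± 0.30, adjusted p = 4.05e-04), and neither passed at 4 h. Acan, which encodes aggrecan, the fourth lectican, stayed under the filter with 86.0 to 341 over all arrays.

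Enzymes that build the chondroitin chain gave a mixed picture. Of 6 polymerising enzymes tested, 2 rose at 4 h and 1 rose at 12 h, 0 fell at either time, and the median log2 change was 0.54 at 4 h and 0.38 at 12 h. Over all genes, 32.4% passed at 4 h and 40.8% at 12 h. Csgalnact1, which adds the first N-acetylgalactosamine of the chain, averaged 2920 ± 90.1 with EGF and 1163 ± 182 in controls at 4 h (1.32 ± 0.17, limma, adjusted p = 7.00e-05). Chsy1, a chondroitin synthase, averaged 20382 ± 1714 with EGF and 9429 ± 1085 in controls at 4 h (1.11 ± 0.15, limma, adjusted p = 1.12e-04). At 12 h these changes were 0.23 ± 0.17 and 0.20 ± 0.15 and did not pass, and both were lower at 12 h than at 4 h by the test of the difference (limma, adjusted p = 0.0108 and 0.0145). The count that rose was 2 to 3 at 4 h and 1 to 4 at 12 h over the 24 alternatives. Csgalnact2 was the gene that rose at 12 h (0.53 ± 0.11, limma, adjusted p = 0.00154).

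Ugdh, which makes the UDP-glucuronate that chondroitin and hyaluronan chains share, changed like Chsy1. It averaged 20989 ± 782 with EGF and 9639 ± 823 in controls at 4 h (1.12 ± 0.15, limma, adjusted p = 1.09e-04), and 9410 ± 2133 with EGF and 8316 ± 644 in controls at 12 h, where it did not pass. Of the 10 tested genes for sulfation, epimerisation and precursors, it was the 1 that rose at 4 h, and 4 fell (1 to 5 over the alternatives), with a median of -0.26. Papss2 (-0.87 ± 0.21, limma, adjusted p = 0.00697) and Papss1 (-0.67 ± 0.17, limma, adjusted p = 0.00953), which make the sulfate donor PAPS, and Chst14 (-0.58 ± 0.16, limma, adjusted p = 0.0153), the dermatan 4-O-sulfotransferase, were among the 4. At 12 h, 1 rose and 2 fell, with a median of -0.15. The share of all genes that passed was 32.4% at 4 h and 40.8% at 12 h. Uxs1, which makes the UDP-xylose that starts the linkage to the core protein, rose (1.13 ± 0.14, limma, adjusted p = 3.82e-05), and Chst14 (-0.53 ± 0.16, limma, adjusted p = 0.0208) and the PAPS carrier Slc35b3 (-0.71 ± 0.24, limma, adjusted p = 0.0333) fell. Of the 6 tested genes that start the chain, B4galt7 fell at 4 h (-0.76 ± 0.22, limma, adjusted p = 0.0189, lost in 3 of 24 alternatives), B3gat3 rose at 12 h (0.72 ± 0.25, limma, adjusted p = 0.0383, lost in 7 of 24) and Pxylp1 fell at 12 h (-1.03 ± 0.18, limma, adjusted p = 4.76e-04).

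**Figure D4:**
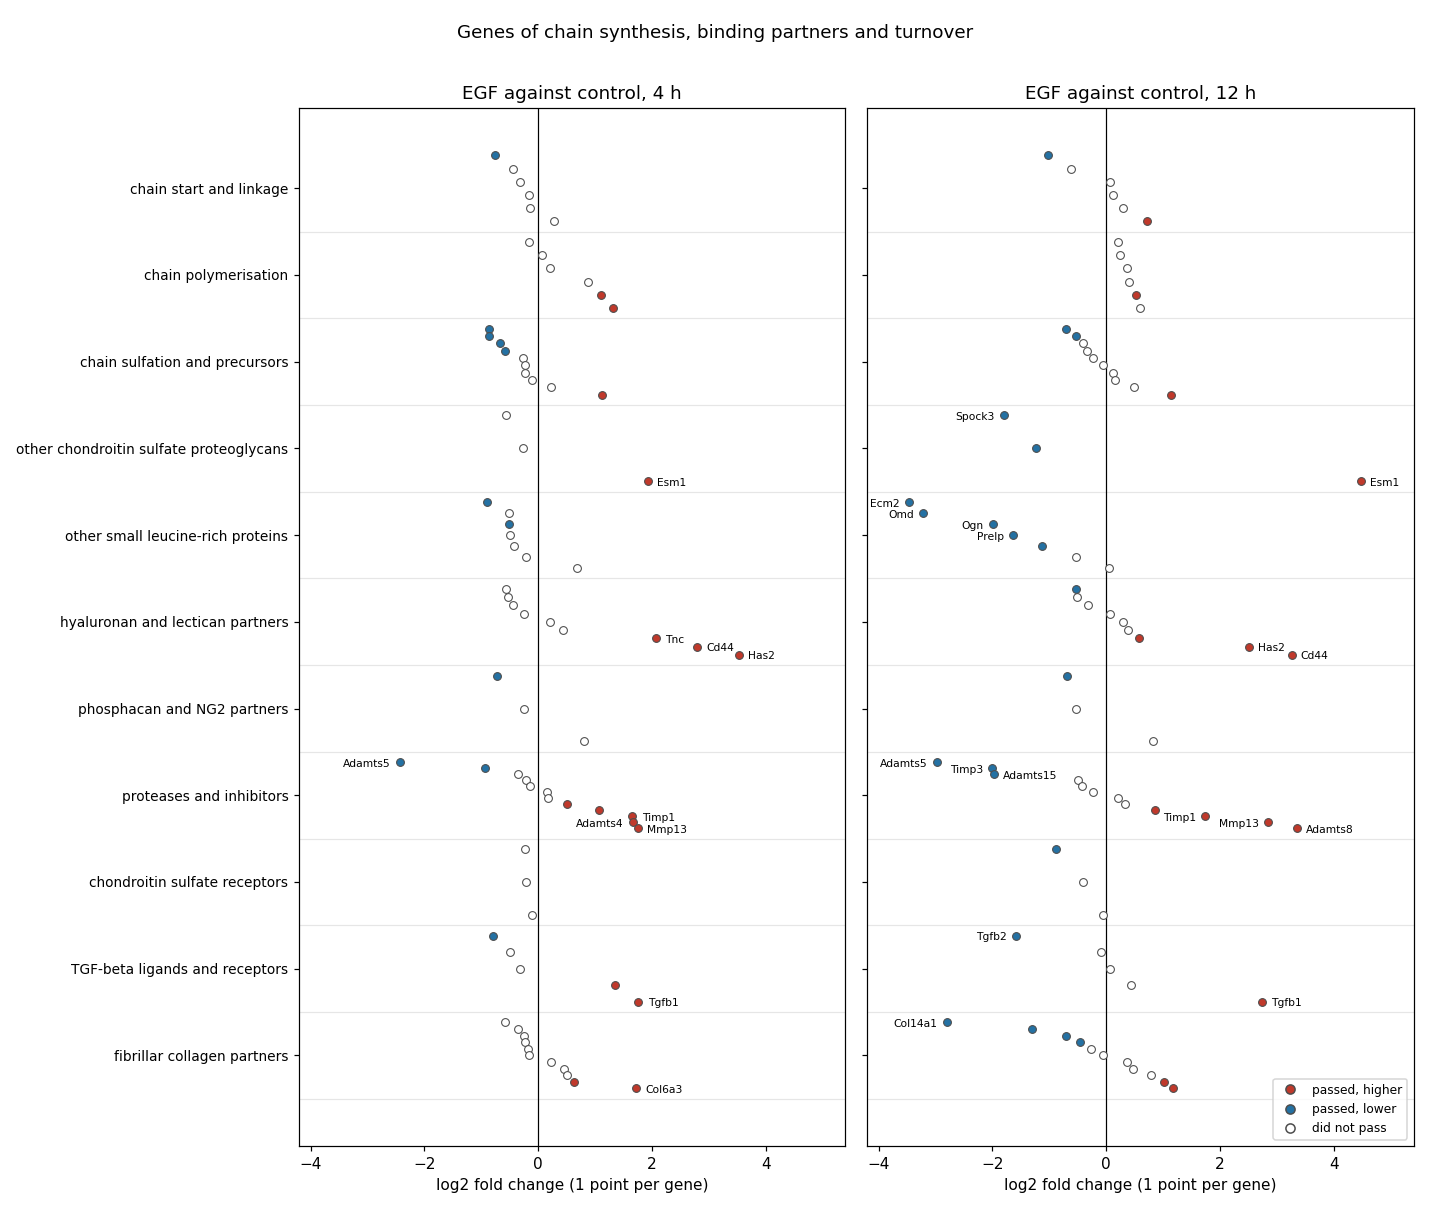
Log2 change (EGF minus control, limma) of the tested genes of the 11 lists of chain synthesis, relatives, binding partners, turnover and receptors at 4 h and 12 h; each point is the leading probe set of 1 gene, filled where it passed, and genes that passed with a change of at least 1.5 are named. At 12 h, 5 of the 7 small leucine-rich genes passed as lower, with Ecm2 at -3.46 and Omd at -3.21, and Esm1 lies at 4.48.

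Of 9 tested genes for hyaluronan, link proteins and other partners of lecticans, 3 rose and 0 fell at 4 h, where 32.4% of all genes passed. At 12 h, 3 rose and 1 fell, where 40.8% did. Cd44, a hyaluronan receptor, rose by 2.80 ± 0.11 at 4 h and 3.26 ± 0.11 at 12 h (limma, adjusted p = 2.04e-09 and 3.67e-10), and Has2, a hyaluronan synthase, by 3.53 ± 0.56 and 2.51 ± 0.56 (limma, adjusted p = 4.17e-04 and 0.00341). Tnc, which encodes a tenascin that lecticans bind, averaged 2588 ± 59.9 with EGF and 602 ± 56.2 in controls at 4 h, and 10259 ± 676 with EGF and 14866 ± 391 in controls at 12 h. Its change was 2.06 ± 0.12 at 4 h and -0.54 ± 0.12 at 12 h (limma, adjusted p = 4.82e-08 and 0.00278). Fbn1, fibrillin, rose at 12 h (0.58 ± 0.17, limma, adjusted p = 0.0186). The link proteins lie beside the lectican genes in the genome, Hapln1 beside Vcan, Hapln4 beside Ncan and Hapln2 beside Bcan, and none of them passed a test. Hapln1 was dim (60.8 to 266 over all arrays) and was not tested, and Hapln2 (0.06 ± 0.35) and Hapln4 (0.29 ± 0.43) did not pass at 12 h. Of 3 tested partners of phosphacan and NG2, Mpdz, a scaffold protein that binds the tail of NG2, fell at both times (-0.73 ± 0.16 and -0.69 ± 0.16, limma, adjusted p = 0.00442 for each). With median centring the 4 h call of Mpdz was lost (-0.53, limma, adjusted p = 0.0593).

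Proteases that cut lecticans, with their inhibitors, moved in both directions. Of 12 tested, 5 rose and 2 fell at 4 h, where 32.4% of all genes passed, and 4 rose and 3 fell at 12 h, where 40.8% did. Over the alternatives 3 to 6 rose at either time, 2 fell at 4 h and 3 to 5 fell at 12 h. Adamts5, an aggrecanase, averaged 874 ± 244 with EGF and 4708 ± 283 in controls at 4 h, and 927 ± 264 with EGF and 7575 ± 2488 in controls at 12 h (-2.44 ± 0.28 and -2.98 ± 0.28, limma, adjusted p = 2.83e-05 and 2.99e-06). Adamts15 also fell at both times (-0.94 ± 0.14 and -1.97 ± 0.14, limma, adjusted p = 2.13e-04 and 1.75e-07). Adamts4, the other main aggrecanase, rose at 4 h (1.66 ± 0.23, limma, adjusted p = 1.53e-04) and at 12 h (0.85 ± 0.23, limma, adjusted p = 0.0116). Adamts8 averaged 21589 ± 5038 with EGF and 2061 ± 257 in controls at 12 h (3.35 ± 0.22, limma, adjusted p = 9.25e-08), and it rose at 4 h too (1.07 ± 0.22, limma, adjusted p = 0.00242). The inhibitor Timp3, which acts on aggrecanases, fell at 12 h (-2.01 ± 0.13, limma, adjusted p = 1.03e-07), while Timp1 rose at both times (1.66 ± 0.18 and 1.74 ± 0.18, limma, adjusted p = 1.81e-05 and 7.63e-06).

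Ligands and partners of the leucine-rich proteoglycans closed the set. Of 5 tested genes of the transforming growth factor beta system, 2 rose and 1 fell at 4 h, and 1 rose and 1 fell at 12 h. Over all genes, 32.4% passed at 4 h and 40.8% at 12 h. Tgfb1 rose at both times (1.76 ± 0.44 and 2.74 ± 0.44, limma, adjusted p = 0.00863 and 2.90e-04), and its EGF arrays at 12 h were widely spread (6037 ± 4332, against 765 ± 231 in controls). Tgfb2 fell at both times (-0.79 ± 0.19 and -1.59 ± 0.19, limma, adjusted p = 0.00754 and 2.68e-05), and the receptor gene Tgfbr1 rose at 4 h (1.35 ± 0.14, limma, adjusted p = 1.04e-05). With median centring the 4 h call of Tgfb2 was lost (-0.55, limma, adjusted p = 0.0773). Of 11 collagens and collagen-linking genes, 2 rose and 0 fell at 4 h, where 32.4% of all genes passed, and 2 rose and 4 fell at 12 h, where 40.8% did. Col14a1, a fibril-associated collagen, averaged 218 ± 146 with EGF and 1687 ± 1354 in controls at 12 h (-2.80 ± 0.57, limma, adjusted p = 0.00172), and Col12a1 of the same class fell by 1.30 (SE 0.18, limma, adjusted p = 9.95e-05). Lox, which cross-links collagen, rose at 12 h (1.01 ± 0.13, limma, adjusted p = 4.32e-05), and Col1a2 fell (-0.70 ± 0.15, limma, adjusted p = 0.002). At 4 h Col6a3 (1.72 ± 0.47, limma, adjusted p = 0.015) and Col6a1 (0.64 ± 0.19, limma, adjusted p = 0.0261) were the genes that rose. That count ran from 0 without EGF replicate 1 of the 4 h experiment to 4 with the array set as a block. Of 3 tested receptors for chondroitin sulfate, Ptprf fell at 12 h (-0.88 ± 0.16, limma, adjusted p = 7.68e-04), and Ptprs and Rtn4r did not pass at either time.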

How the data were processed

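The 12 arrays were used as deposited. The values are MAS5 signal intensities on a linear scale, 1 per probe set, per the submitters' processing notes and the values themselves; no source used here gives the MAS5 version. The authors' scaling gave every array a 2% trimmed mean of 1500.46 to 1500.56, so signals are relative to each array's own total, and the number of arrays limits the precision. Groups were taken from sample titles, since the description field reads as control for the treated samples too. Gene names came from the platform annotation: of 31099 probe sets, 20832 had 1 symbol, 436 several and 9831 none.

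After leaving out 57 control probe sets, those with a mean signal under the 40th percentile (215.4) were dropped, which left 18625. limma 3.58.1 (R 4.3.3) was fitted to log2(signal + 24.4), the offset being the 10th percentile of all signals, with 4 group means, an intensity trend and 8 residual degrees of freedom, and p-values were adjusted over all 18625. The fit was tested on simulated data. The members and gene lists were chosen with earlier results of these data known. Named genes were every member, up to 4 genes of each list and time with the smallest p among those that passed, and the 3 genes most like Vcan and Dcn; Podn, Aspn, Tsku, Acan, the Hapln genes, Ptprs and Rtn4r were named after their values were seen, as were Chsy1, Csgalnact1 and Ugdh at 12 h and Adamts4 and Timp1 at 12 h and Adamts8 at 4 h. Marker genes come from listed markers of each cell type.

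Replicate numbers come from the titles. At 4 h, deviations from the group means of same-numbered EGF and control arrays correlated at 0.121, 0.150 and 0.376, each over 0.1, which was taken as pairing. However, EGF replicate 1 with control replicate 2 (0.142) and EGF replicate 2 with control replicate 1 (0.138) correlated alike. Only replicate 3 stood apart (-0.203 to -0.252 with the others). At 12 h same-numbered arrays correlated at 0.083, -0.111 and -0.103, which was not taken as pairing. The main fit, which gave the reported p-values, used no pairing. Replicate numbers entered only as a block in an alternative fit, which covered both times. Arrays of the same group correlated at 0.899 to 0.979 and of different groups at 0.735 to 0.905. In all, 25 alternatives were run.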

Additional observations from a re-analysis of the deposited data

Results flagged for a closer look

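The EGF effect differed between the 2 times for 3 of the proteoglycan genes by the test of the difference itself, and it did so in all 23 alternatives run for each. Of all genes tested by their leading probe sets, 14% passed that test, 6.55% as higher and 7.45% as lower. For Vcan the 12 h effect exceeded the 4 h effect by 1.88 on the log2 scale (limma, adjusted p = 8.76e-04, range over alternatives 1.51e-04 to 0.00712). Its EGF cultures averaged 11938 ± 895 at 12 h and 3125 ± 463 at 4 h, and its controls 456 ± 43.0 and 449 ± 136 (SD, n = 3 each).

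For Dcn the difference was -2.56 (limma, adjusted p = 2.28e-05, range 7.99e-07 to 4.37e-04). Here the EGF cultures averaged nearly the same at both times, and the 12 h controls stood apart from the 4 h controls. For Fmod the difference was -1.38 (limma, adjusted p = 6.96e-04, range 3.56e-06 to 0.0066), with lower EGF and control levels at 12 h than at 4 h. Each time is a separate experiment, so a difference between times and one between experiments cannot be told apart. The ratio of 3′ to 5′ actin signal was 1.20 to 1.61 at 4 h. At 12 h it was 11.1 to 21.7, except 1.24 on EGF replicate 3, and its part in these differences was not tested.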

How the results depend on the processing

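Over 25 alternatives, the 6 tested members gave 556 values: 506 stayed on their side of the threshold, 40 lost a call, 10 gained one and 0 reversed one. Of the 506, 10 changed sign while past the threshold in neither fit, for Bgn at 4 h and 12 h and for Vcan and Lum between the controls. Calls for Vcan at both times, for Cspg4, Dcn and Fmod at 12 h and for the differences of Vcan, Dcn and Fmod held wherever they were run; the filter at the 60th percentile left out Cspg4 and Lum. Of the 52 calls of list genes that the naming rule covers, 38 held in every alternative and 14 were lost in at least 1 (45 of 1246 values), and 0 reversed; the 14 were Chst14 at both times, B4galt7, Papss1, Papss2, Col6a1, Col6a3, Ogn, Omd, Mpdz and Tgfb2 at 4 h, and B3gat3, Slc35b3 and Fbn1 at 12 h. Papss1, Mpdz and Tgfb2 were lost with median centring alone and Papss2 without the replicate 3 pair at 4 h; each of the others was lost on leaving out single arrays of its time, which for Chst14 at 12 h was control replicate 3, for Fbn1 control replicate 1 or EGF replicate 2 and for Col6a3 EGF replicate 1. The cause of these losses was not tested. At 4 h, probe sets lower numbered 3068 as reported, 1509 with median centring and 4960 with the array set as a block, and centring made the share of calls that were higher 63.8% in place of 40.8% (at 12 h 50.2% in place of 42.3%). For the difference between times, probe sets higher numbered 562 with median centring and 2168 with the set block, and probe sets lower 1924 with the set block. Between the controls, 1347 were higher and 1392 lower with the set block, counts that depend on the array-set levels at which that fit reads the controls. Leaving out 1 array at a time gave 1631 to 2697 higher and 2233 to 4181 lower at 4 h, 2238 to 3133 and 3052 to 4113 at 12 h, 647 to 1501 and 757 to 1488 for the difference, and 3334 to 5215 and 3333 to 4654 between controls. Blocking on the replicate number (replicate block) gave 2144 higher and 3076 lower calls at 4 h, and 2929 and 3921 at 12 h. The blocked fit, with 4 residual degrees of freedom, changed no member call between EGF and control (Fmod at 4 h, limma, adjusted p = 0.0496). At 12 h it gave 2 polymerising enzymes higher, 2 chain-start genes lower and 4 sulfation genes lower. Between the controls it gave -0.59 for Fmod (limma, adjusted p = 0.0601), without a call. It reads the controls at the level of replicate 1 at 12 h and of replicate 3 at 4 h. The values of both block fits between the controls, counted among the 556, thus do not test that difference. Dim members near the background of these arrays could show only large changes.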
